A study of Mus musculus with 9 samples.

Results

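The red cell membrane skeleton and antigens are followed here through 8 genes, Sptb, Ank1, Add2, Epb42, Slc4a1, Rhd, Ermap and Cldn13. They were chosen by symbol, with earlier results of these data known. All 8 are rows of a count table of 47480 genes, and all 8 were among the 16426 genes that passed the filter on low counts. The table holds 9 RNA sequencing libraries of primary C57BL/6 mouse cells of 2 populations, LSK (labelled as stem cells) and MP (labelled progenitors; what the letters stand for is not stated), in 2 kinds of RNA. Cells of every group had been given 100 ug/ml cycloheximide, which holds ribosomes on their messages, for 10 min. The 4 groups were LSK total RNA (2 libraries), LSK polysomal RNA (2), MP total RNA (2) and MP polysomal RNA (3). Polysomal RNA was fraction 7 of 10 from a 10 to 60% sucrose gradient, and total RNA had been kept back from the lysate ahead of the gradient. The labels give no age or sex and leave unsaid whether a library is its own animal or sort, so a p-value here weighs a difference against the spread of these libraries alone, and that spread may be technical.

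A mature red cell owes its shape and its resistance to shear to a protein net under its membrane. Long rods of spectrin meet at short actin filaments, where adducin caps the actin and holds the spectrin, and ankyrin ties beta spectrin to the anion exchanger band 3 in the membrane, with protein 4.2 bound to both. Rh proteins and other blood group carriers sit in or beside the same membrane complexes. The genes are known for their expression in maturing erythroblasts, under the transcription factor GATA1 and its partners, and inherited loss of several of them causes spherocytosis.

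Sptb encodes red cell beta spectrin, Ank1 ankyrin-1, Add2 beta adducin, Epb42 protein 4.2 and Slc4a1 band 3. Rhd encodes the mouse Rh blood group protein, Ermap an immunoglobulin superfamily protein that carries the Scianna blood group antigens in humans, and Cldn13 a protein of the claudin family, best known from tight junctions. In the GENCODE annotation of GRCm38 all 8 are protein-coding genes. Sptb lies at chr12:76580488-76710547 on the minus strand, Ank1 at chr8:22974844-23150497 on the plus strand, Add2 at chr6:86028681-86124409 on the plus strand and Epb42 at chr2:121017891-121037072 on the minus strand. Slc4a1 lies at chr11:102348824-102366203 on the minus strand, Rhd at chr4:134864536-134896172 on the plus strand, Ermap at chr4:119175457-119190011 on the minus strand and Cldn13 at chr5:134914249-134915526 on the minus strand. No source used here gives the strand setting of the counting. Plekhg3 overlaps the span of Sptb on the other strand, and non-coding genes overlap the spans of Ank1 and Add2 on both strands. These overlaps are of whole genes and not of exons, so whether any counted reads are shared was not tested.

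The members share few short motifs just ahead of their start sites. RefSeq (GRCm38.p6) gave a window of 250 bases before to 50 after the start for 5 members, Sptb, Add2, Epb42, Rhd and Ermap, and for 32851 start sites in all. A GATA motif (AGATAA or TGATAA, on either strand) was found in the windows of 3 of these 5 members, Epb42, Rhd and Ermap, and in 18.6% of all windows. The composite of CTG, 7 to 9 further bases and GATAA, which contains the end of a GATA motif, was found for Epb42 and Ermap and in 2.35% of all windows. CACACCC, one form of the motif of KLF factors, was found for 0 of 5 members and in 7.95% of all windows. Other forms of that motif were not searched. CANNTG, the E-box, occurred at least 1 time for Sptb, Add2, Epb42 and Rhd but is held by 72.3% of all windows. A match describes letters in a window and not a bound site. The stretches around the 3 GATA matches are printed because GATA1 is the factor best known for these genes, each 5′ to 3′ on the strand of its gene, with the GATA motif in capitals and, for Epb42 and Ermap, also the CTG of the composite. For both of these the motif reads on the opposite strand, so the capitals show TTATCT or TTATCA and CAG. The Epb42 stretch is chr2:121037073-121037117, bases -240 to -196 from the start, the Rhd stretch is chr4:134864479-134864512, bases -57 to -24, and the Ermap stretch is chr4:119190032-119190076, bases -81 to -37.
Epb42: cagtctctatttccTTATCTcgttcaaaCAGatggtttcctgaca
Rhd: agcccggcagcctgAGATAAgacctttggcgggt
Ermap: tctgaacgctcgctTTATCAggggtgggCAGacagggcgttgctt

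The libraries held 27342343 to 34807735 counts each. Levels are given as CPM, a count relative to the library's total after TMM scaling (trimmed mean of M-values), and changes as log2 fold changes from edgeR's quasi-likelihood fit to all 9 libraries, with the standard error (SE) and a p-value adjusted by the Benjamini-Hochberg method over all 16426 genes, called below 0.05. Without adjustment, 17.1% of all genes had a p under 0.05 between the populations in total RNA and 17.8% in polysomal RNA. Ly6a, the gene of the stem cell antigen Sca-1, was at 50.2 to 110 CPM in the LSK and 0.159 to 1.26 CPM in the MP libraries. The summed level of 13 erythroid marker genes was 1959 to 2444 CPM in LSK total RNA, 2239 to 3832 in LSK polysomal RNA, 5876 to 8191 in MP total RNA and 8149 to 10538 in MP polysomal RNA, with 0 of the 13 at 0 in any group. Most of each sum came from the carbonic anhydrase genes Car1 and Car2. Car1 was at 278 to 543 CPM in LSK and 3013 to 5292 in MP libraries. Car2 overlapped, at 1413 to 2809 CPM in LSK and 2090 to 4296 in MP. Gata1 was at 45.6 to 124 CPM in LSK and 228 to 376 in MP. Tal1 overlapped, at 13.1 to 48.3 CPM in LSK and 16.2 to 60.0 in MP. Markers of late erythroblasts were low in both populations. Hbb-bs, an adult beta globin gene, was at 4.61 to 74.5 CPM in LSK and 17.5 to 81.7 in MP libraries, and Alas2, the heme synthesis enzyme of erythroblasts, at 1.37 to 13.7 CPM over all 9. Other populations moved too: the summed granulocyte and monocyte progenitor markers were at 4853 to 12127 CPM in LSK and 31122 to 55670 in MP, and maturing neutrophil markers were high in the MP libraries numbered 1 (14282 CPM in total and 17747 in polysomal RNA, against 519 to 1006 in the other 3 MP libraries). The B cell sum was high in the LSK libraries numbered 2 (4272 and 3281 CPM, against 601 and 871 in those numbered 1). In such bulk samples fewer cells of a type and less RNA per cell cannot be told apart, and the part of these marker differences in the results below was not tested.

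The skeleton genes Sptb, Ank1 and Add2 were low in LSK and high in MP in both kinds of RNA. Sptb was at 1.20 and 1.52 CPM in LSK total RNA, 1.23 and 1.33 in LSK polysomal RNA, 36.0 and 109 in MP total RNA, and 20.3, 45.2 and 104 in MP polysomal RNA. Its 4 LSK libraries were almost level, and the lowest MP library stood far above them. The LSK levels of Sptb rest on 32 to 61 counts in a library. Ank1 was at 2.10 and 2.92 CPM in LSK total RNA, 7.51 and 4.15 in LSK polysomal RNA, 36.5 and 59.2 in MP total RNA, and 53.3, 93.8 and 95.2 in MP polysomal RNA. Every MP library was above every LSK library. Add2 was at 8.52 and 3.96 CPM in LSK total RNA, 8.07 and 14.1 in LSK polysomal RNA, 153 and 177 in MP total RNA, and 118, 223 and 237 in MP polysomal RNA. Its populations did not overlap either.

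Epb42 followed the same order at lower levels. It was at 1.37 and 0.424 CPM in LSK total RNA, 2.82 and 1.25 in LSK polysomal RNA, 8.59 and 17.8 in MP total RNA, and 14.7, 22.3 and 24.9 in MP polysomal RNA. Its MP libraries were all above its LSK libraries. The LSK levels of Epb42 rest on 17 to 85 counts in a library. Slc4a1, the gene of the protein to which ankyrin and protein 4.2 bind, did not follow. It was at 2.39 and 0.997 CPM in LSK total RNA, 9.93 and 7.72 in LSK polysomal RNA, 5.70 and 4.38 in MP total RNA, and 5.16, 2.35 and 3.98 in MP polysomal RNA. Its highest libraries were the LSK polysomal ones. The lowest was LSK total 2, and LSK total 1 lay just above MP polysomal 2, the lowest MP library. These levels rest on 40 to 299 counts in a library.

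Of the remaining members, Rhd was at 8.90 and 15.8 CPM in LSK total RNA and 29.0 and 52.4 in LSK polysomal RNA. In MP it was at 176 and 260 CPM in total RNA, and 273, 235 and 274 in polysomal RNA. Both LSK polysomal libraries were above both LSK total libraries, and all MP libraries were above all LSK libraries. Ermap was at 29.7 and 18.6 CPM in LSK total RNA, 44.7 and 23.8 in LSK polysomal RNA, 369 and 481 in MP total RNA, and 616, 600 and 529 in MP polysomal RNA. It had the highest CPM of the members in every MP library, before any correction for length. Cldn13 was at 3.03 and 6.53 CPM in LSK total RNA, 14.2 and 18.8 in LSK polysomal RNA, 94.2 and 203 in MP total RNA, and 151, 126 and 215 in MP polysomal RNA. Its populations did not overlap in either kind of RNA.

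**Figure D1:**
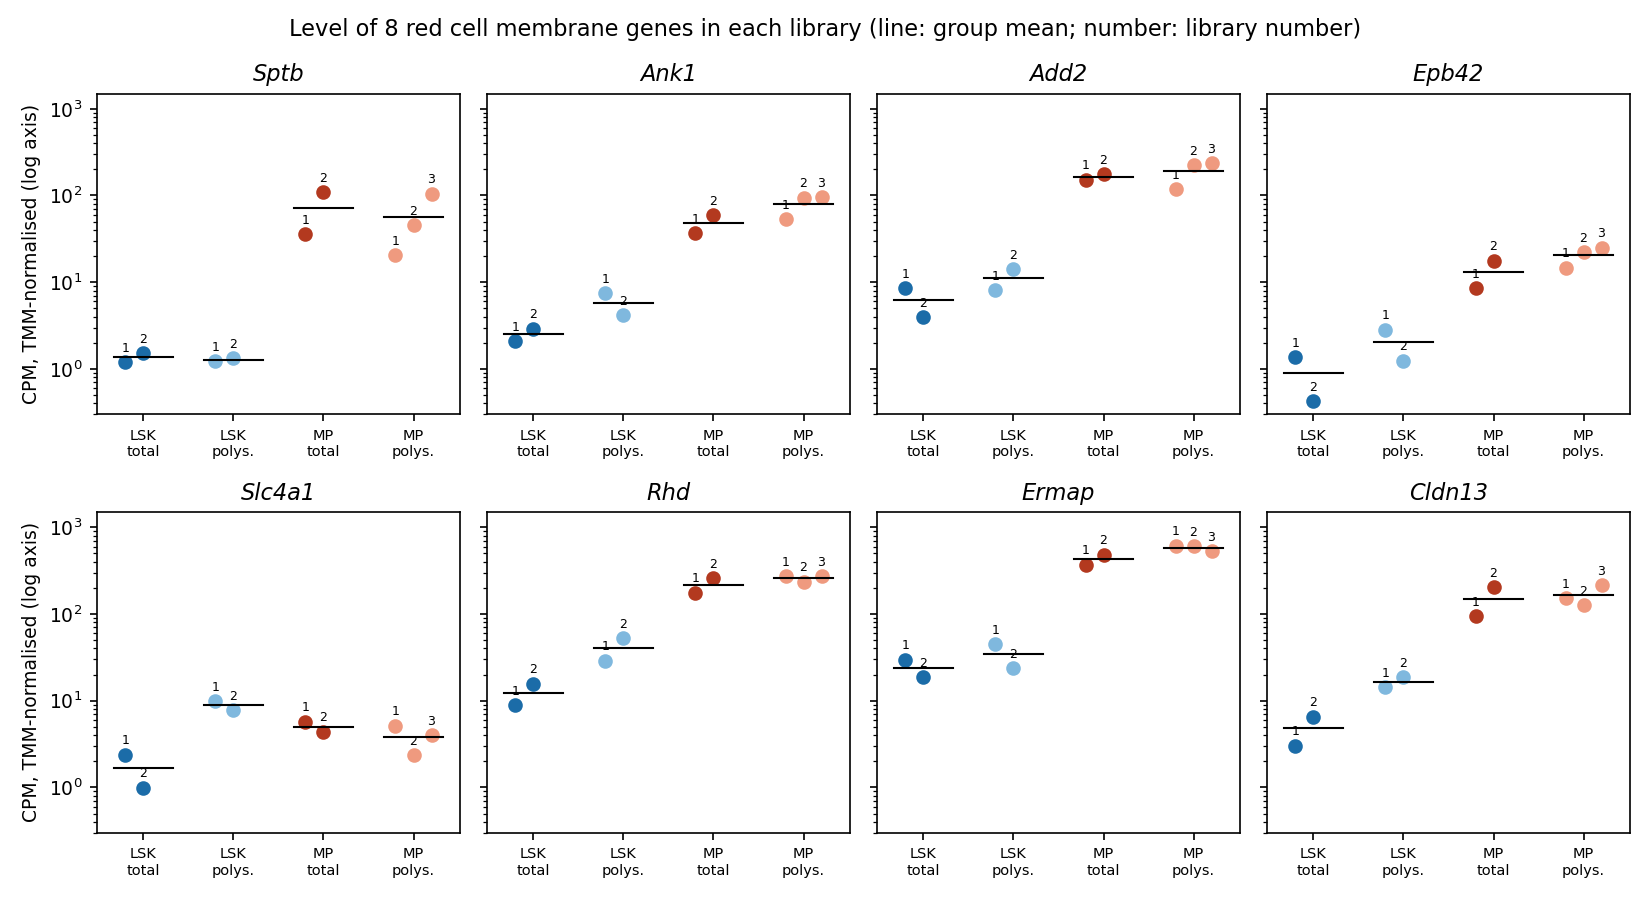
Level of each of the 8 genes in each library, as TMM-normalised CPM on a log axis, by group; points are libraries with their number and lines are group means. All genes but Slc4a1 have every MP library above every LSK library, and Slc4a1 is highest in LSK polysomal RNA at 9.93 and 7.72 CPM.

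In total RNA, the MP level was higher than the LSK level for all 8 genes, and the libraries of the populations did not overlap for any of them, which held in the higher direction for 22.8% of all genes tested and in the lower direction for 28.5%. Of the 8, 6 rose by the test (Sptb, Ank1, Add2, Rhd, Ermap and Cldn13), against 0.274% of all genes tested called higher and 0.816% called lower, 1.09% in either direction. The members were chosen with earlier results of these data known, so this contrast describes them and is no test of such genes as a set. Group means of Sptb were 1.36 ± 0.230 CPM (SD, n = 2) in LSK and 72.6 ± 51.7 (SD, n = 2) in MP, a log2 fold change of 5.73 (SE 0.981, edgeR adjusted p = 0.0365), or 53.2-fold. Cldn13 rose 31.1-fold, from 4.78 ± 2.47 to 149 ± 77.1 CPM (log2 4.96, SE 0.698, edgeR adjusted p = 0.0326). Add2 rose 26.4-fold, from 6.24 ± 3.22 to 165 ± 17.2 CPM (log2 4.72, SE 0.678, edgeR adjusted p = 0.0326).

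Ank1, Rhd and Ermap rose by similar amounts. The change of Ank1 was 19.0-fold (log2 4.25, SE 0.667, edgeR adjusted p = 0.0326), that of Rhd 17.7-fold (log2 4.14, SE 0.584, same adjusted p) and that of Ermap 17.6-fold (log2 4.14, SE 0.550, same adjusted p). Epb42 was not called, with means of 0.897 ± 0.670 and 13.2 ± 6.48 CPM (log2 3.87, SE 0.828, edgeR adjusted p = 0.0581). Slc4a1 was not called either, with 1.69 ± 0.986 and 5.04 ± 0.928 CPM (log2 1.57, SE 0.672, edgeR adjusted p = 0.27). The median change of the 8 was 4.20 on the log2 scale, beside -0.01 over all genes tested. The calls rest on the shared estimate of the spread. Without LSK total 1 or 2, MP total 1 or 2, or MP polysomal 1, 2 or 3 the count of members called in total RNA fell from 6 to 0, and so did the count over all genes, from 179 to 0. With only the 4 compared libraries it was also 0, while the change of every one of the 8 genes stayed positive in each alternative run.

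In polysomal RNA, 7 of the 8 genes were higher in every MP library than in every LSK library, which held for 15% of all genes tested. Slc4a1 was lower in every MP library, which held for 17.4%. The test called the same 6 members as in total RNA, against 0.524% of all genes tested called higher and 2.83% called lower, 3.35% in either direction. The choice of the members limits this contrast in the same way. Sptb changed 44.2-fold, from 1.28 ± 0.071 CPM (SD, n = 2) to 56.6 ± 43.2 (SD, n = 3), a log2 fold change of 5.46 (SE 0.952, edgeR adjusted p = 0.0205). Add2 rose from 11.1 ± 4.28 to 193 ± 65.2 CPM (log2 4.12, SE 0.640, edgeR adjusted p = 0.0150) and Ank1 from 5.83 ± 2.37 to 80.8 ± 23.8 CPM (log2 3.79, SE 0.632, edgeR adjusted p = 0.0181). These 3 genes thus rose 44.2-fold, 17.4-fold and 13.8-fold.

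Ermap rose most clearly against its error in polysomal RNA, from 34.3 ± 14.8 to 582 ± 46.2 CPM (log2 4.08, SE 0.534, edgeR adjusted p = 0.0094). Cldn13 rose 9.96-fold, from 16.5 ± 3.22 to 164 ± 46.0 CPM (log2 3.32, SE 0.624, edgeR adjusted p = 0.0258). Rhd had the smallest change of the 6, 6.40-fold, from 40.7 ± 16.5 to 261 ± 21.8 CPM (log2 2.68, SE 0.524, edgeR adjusted p = 0.0298). Epb42 missed the threshold at 2.03 ± 1.12 and 20.6 ± 5.30 CPM (log2 3.34, SE 0.777, edgeR adjusted p = 0.0513). Slc4a1 stood at 8.83 ± 1.56 CPM in LSK and 3.83 ± 1.41 in MP, a log2 difference of -1.20 (SE 0.589, 95% interval -2.52 to 0.12, edgeR adjusted p = 0.332). The median change of the 8 was 3.56, beside -0.03 over all genes tested. Without MP polysomal 1 or 2 the count of members called was 0, without MP polysomal 3 it was 1 and without LSK polysomal 1 or 2 it was 2; in each alternative run Slc4a1 stayed negative and the other 7 stayed positive.

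**Figure D2:**
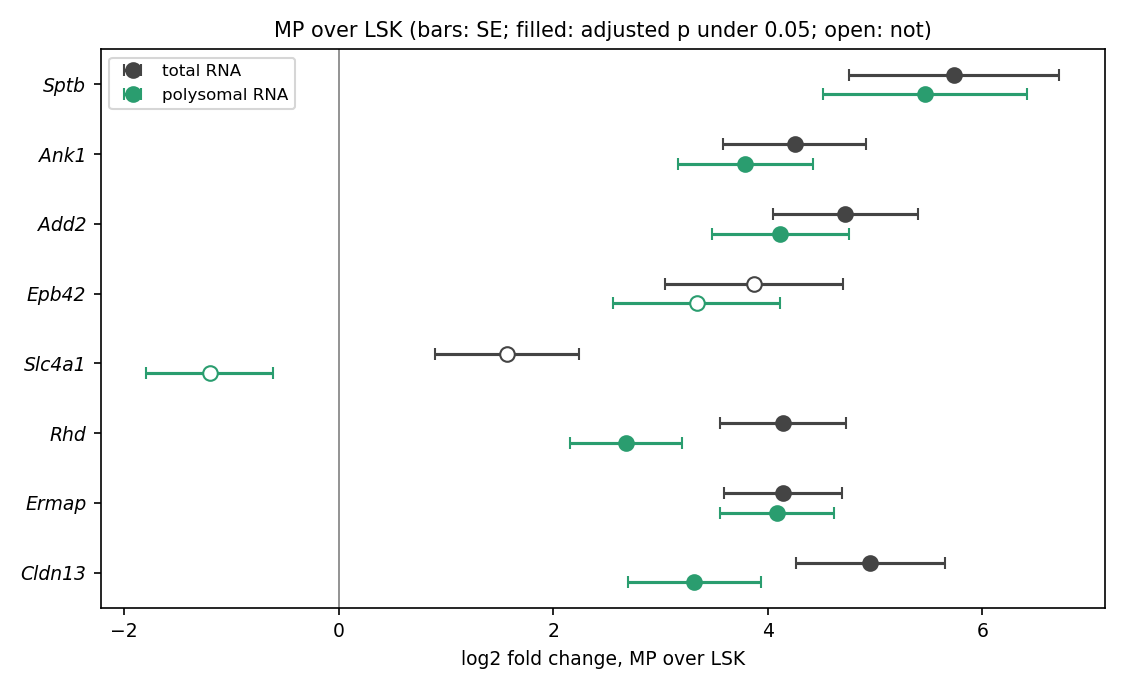
Change of each gene from LSK to MP as log2 fold change, in total RNA (grey) and polysomal RNA (green); bars are SE of the edgeR fit, and filled points have an adjusted p under 0.05. Sptb has the highest value in both, 5.73 and 5.46, and Slc4a1 is at 1.57 in total and -1.20 in polysomal RNA.

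Across all genes tested, 6.75% were higher in every MP library than in every LSK library in both kinds of RNA, as were 7 of the 8 members. The pattern of Slc4a1, higher in MP in all libraries of total RNA and lower in all libraries of polysomal RNA, was shown by 119 genes, 0.724% of those tested. The number of members called was 6 in both kinds of RNA also with DESeq2's size factors and with library totals in place of TMM. Epb42 lay close to the threshold, and it was called in 5 of 19 alternatives in total RNA and 6 of 19 in polysomal RNA. Its adjusted p ran from 4.6e-05 (DESeq2) to 0.422 in total RNA and from 9.1e-05 (DESeq2) to 0.251 in polysomal RNA.

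The members did not vary alike within MP. Sptb had the widest spread, 5.14-fold between the highest and lowest of the 3 MP polysomal libraries and 3.03-fold between the MP total libraries, while Rhd and Ermap varied by 1.16-fold in MP polysomal RNA. Sptb, Ank1, Add2 and Epb42 were each lowest in the library numbered 1 in both MP groups, the libraries with high maturing neutrophil markers. Of the erythroid factors, Klf1 was at 130 and 393 CPM in MP total RNA and 16.8, 90.5 and 382 in MP polysomal RNA, in the same order as Sptb within each group. Epor, the erythropoietin receptor gene, was at 96.9 and 118 and at 27.6, 90.4 and 130 CPM, again in that order. Gata1 did not share it in either kind of RNA, with 230 and 228 CPM in MP total and 360, 376 and 299 in MP polysomal RNA. Of the 13 erythroid markers only Klf1, Epor and Hemgn ran in that order in both MP groups. In MP polysomal RNA Car1 was at 5292, 4911 and 3521 CPM, Tfrc at 711, 568 and 645, and Tal1 at 21.6, 20.8 and 48.8. Klf1 was also lower in the LSK libraries numbered 1, where Sptb was almost level. It was at 4.38 and 42.7 CPM in LSK total and 1.96 and 29.8 in LSK polysomal RNA. What part these differences have in the spread of Sptb was not tested. Without both MP libraries numbered 1, the log2 changes of the 8 genes kept their signs in both kinds of RNA, but 0 members and 0 genes in all were called.

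Per kilobase of exon, the mean levels of Rhd, Ermap and Cldn13 stood above those of all other members in every group. In MP total RNA the order of the mean levels was Cldn13 (139 CPM per kb), Rhd (137), Ermap (80.3), Add2 (16.3), Sptb (5.97), Ank1 (3.54), Epb42 (2.43) and Slc4a1 (1.03). The libraries of neighbours overlapped for Cldn13 and Rhd, for Sptb and Ank1, and for Ank1 and Epb42, and not for the other neighbours. In MP polysomal RNA the order was Rhd (163 CPM per kb), Cldn13 (154), Ermap (110), Add2 (19.0), Ank1 (5.97), Sptb (4.66), Epb42 (3.81) and Slc4a1 (0.783), with overlap of Rhd and Cldn13, of Ank1 and Sptb, and of Sptb and Epb42. Slc4a1 was thus the lowest member in both MP groups.

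In LSK the order differed. In total RNA it was Rhd (7.74 CPM per kb), Ermap (4.55), Cldn13 (4.48), Add2 (0.616), Slc4a1 (0.346), Ank1 (0.185), Epb42 (0.166) and Sptb (0.112), and all neighbours overlapped except Cldn13 and Add2. In LSK polysomal RNA it was Rhd (25.5 CPM per kb), Cldn13 (15.5), Ermap (6.47), Slc4a1 (1.80), Add2 (1.09), Ank1 (0.431), Epb42 (0.376) and Sptb (0.105), and only Ank1 and Epb42 overlapped. The mean of Sptb was the lowest in both LSK groups, but in LSK total RNA its libraries overlapped those of Epb42.

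Comparing polysomal with total RNA asks whether a message takes a larger share of the RNA in the polysomal fraction than of total RNA. In LSK the median log2 difference of the 8 genes was 1.20, beside 0.02 over all genes tested, and 7 of the 8 were above 0, with Sptb at -0.09. For 4 genes, Ank1, Slc4a1, Rhd and Cldn13, both polysomal libraries were above both total libraries, as for 16.2% of all genes tested, with 20.6% the other way round. None of the 8 passed the test, nor did any gene in the edgeR fit (0% called, with 12.1% of all genes at an unadjusted p under 0.05), while DESeq2 called 433 genes with 1 member and limma on the authors' normalized values 486 with 0 members. That member was Slc4a1, with means of 1.69 and 8.83 CPM (log2 2.38, SE 0.689, edgeR adjusted p = 0.231, DESeq2 adjusted p = 0.0365). Rhd (log2 1.72, SE 0.529, edgeR adjusted p = 0.248) and Cldn13 (log2 1.78, SE 0.611, edgeR adjusted p = 0.287) had the next largest differences. Ank1 was at 1.22, Epb42 at 1.18, Add2 at 0.83 and Ermap at 0.51 on the log2 scale.

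In MP the members lay near even between the fractions. Their median log2 difference was 0.24, beside -0.08 over all genes tested, and edgeR's adjusted p ran from 0.802 to 0.985. Ank1 was at 0.75 (SE 0.543), Epb42 at 0.65, Ermap at 0.45, Rhd at 0.26, Add2 at 0.22, Cldn13 at 0.14, Sptb at -0.36 and Slc4a1 at -0.40 (SE 0.593). Only Ermap had all polysomal libraries above both total libraries, as had 16.3% of all genes tested, with 16.4% the other way round. EdgeR called 0% of the genes here too, with 7.57% at an unadjusted p under 0.05. DESeq2 called 18 genes and limma on the authors' values 0, in neither case a member.

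**Figure D3:**
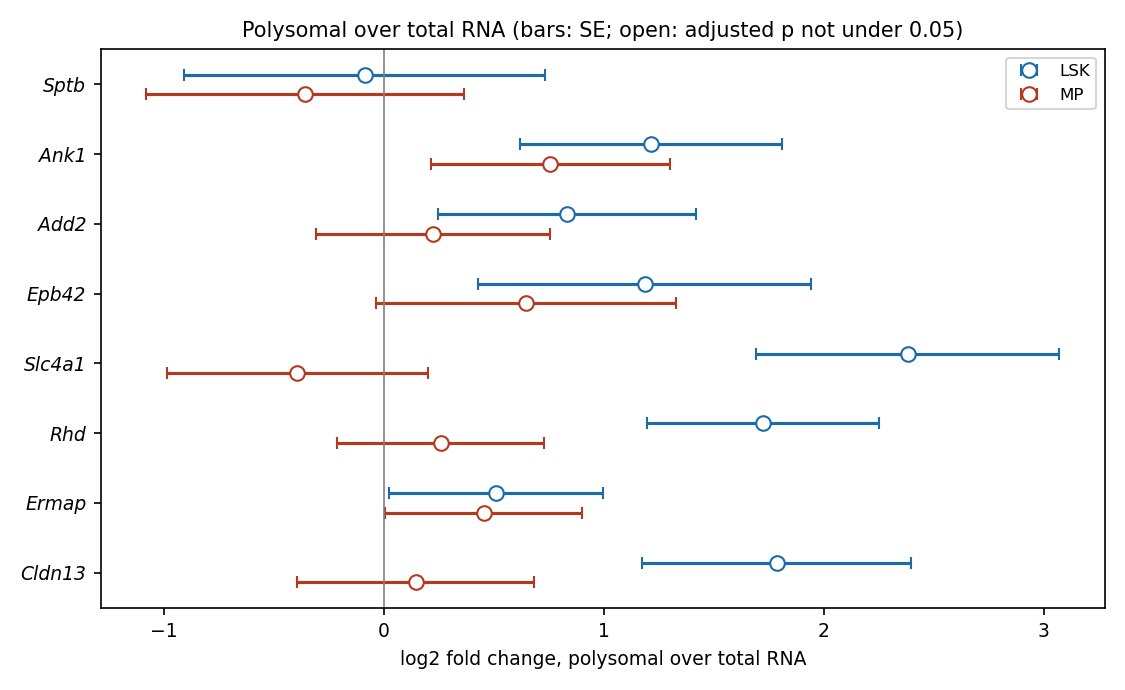
Polysomal over total RNA for each gene as log2 fold change, in LSK (blue) and MP (red), with SE from the edgeR fit; no point has an adjusted p under 0.05. Slc4a1 has the widest gap between the populations, 2.38 in LSK and -0.40 in MP.

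The difference between these 2 comparisons, the polysomal-to-total ratio of MP over that of LSK, was tested as an interaction. It was negative for all 8 genes in the fit to all libraries, but 1 to 3 of the 8 were positive in 9 of 18 alternatives. Ermap turned positive in 7 of them, among these library totals, and 3 members were positive without LSK polysomal 1 or without MP total 2. The median of the 8 was -0.57, beside -0.10 over all genes, of which 7698 were above 0. Slc4a1 had the largest value, -2.78 (SE 0.894, 95% interval -4.78 to -0.77, unadjusted p = 0.0117, edgeR adjusted p = 0.877). It did not pass the test, nor did any other gene (0% called, with 5.29% at an unadjusted p under 0.05), and DESeq2 called 1 gene, which was no member, and limma on the authors' values 0. Cldn13 was at -1.64 (SE 0.801) and Rhd at -1.46 (SE 0.695), both with an edgeR adjusted p of 0.877. Add2 at -0.61, Epb42 at -0.54, Ank1 at -0.46, Sptb at -0.27 and Ermap at -0.06 each lay within 1 SE of 0. The 8 values come from the same 9 libraries and are not separate observations of a shift.

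Of the other genes of the skeleton and of the red cell surface, some passed the test. The lists beside the members, like the members, were chosen with earlier results of these data known, so their shares only describe them. Of 44 genes on these lists other than the members, 41 passed the filter, with a median log2 change from LSK to MP of 0.53 in total and 0.17 in polysomal RNA. In total RNA 3 of the 41 rose and 0 fell, against 0.274% of all genes tested called higher and 0.816% called lower. All 3 encode blood group carriers. They were Smim1, which carries the Vel antigen (log2 3.73, SE 0.588, edgeR adjusted p = 0.0326), Kel, the Kell antigen (log2 3.14, SE 0.536, edgeR adjusted p = 0.0365), and Aqp1, the water channel with the Colton antigens (log2 3.54, SE 0.649, edgeR adjusted p = 0.0435). Kel was at 6.44 ± 1.70 CPM in LSK total RNA and 56.8 ± 6.90 in MP total RNA.

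In polysomal RNA 4 of the 41 rose and 2 fell, against 0.524% of all genes tested called higher and 2.83% called lower. The 4 were the same 3 with Rhag, the partner of Rh proteins (log2 3.76, edgeR adjusted p = 0.0298). Rhag was close to the threshold in total RNA, at 3.61 (edgeR adjusted p = 0.0549). Those that fell were Bcam, the Lutheran antigen, by 6.56 on the log2 scale (edgeR adjusted p = 0.0146), and Sema7a, the carrier of the John Milton Hagen antigen, from 16 and 52 counts to 0, 0 and 1 (edgeR adjusted p = 0.0224). Under alternatives the count of risers ran from 0 to 8 in total and 0 to 6 in polysomal RNA, with 0 in total RNA for the same 7 left-out libraries as for the members. Among adducins and protein 4.1, Add1 was at 0.83, Add3 at 0.15 and Epb41 at 0.53 in total RNA. Their edgeR adjusted p ran from 0.440 to 0.917, so of these and Add2 only Add2 passed. The difference between the subunits was not tested. Other skeleton genes differed without being called. In total RNA Stom was at 169 and 45.6 CPM in LSK and 743 and 525 in MP. Dmtn was at 0.146 and 0.374 CPM in LSK and 1.63 and 3.99 in MP. Tmod1 went the other way, from 2.22 and 2.22 CPM to 0.333 and 0.617. Such non-overlap in total RNA held for 22.8% of all genes tested in the higher and 28.5% in the lower direction.

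**Figure D4:**
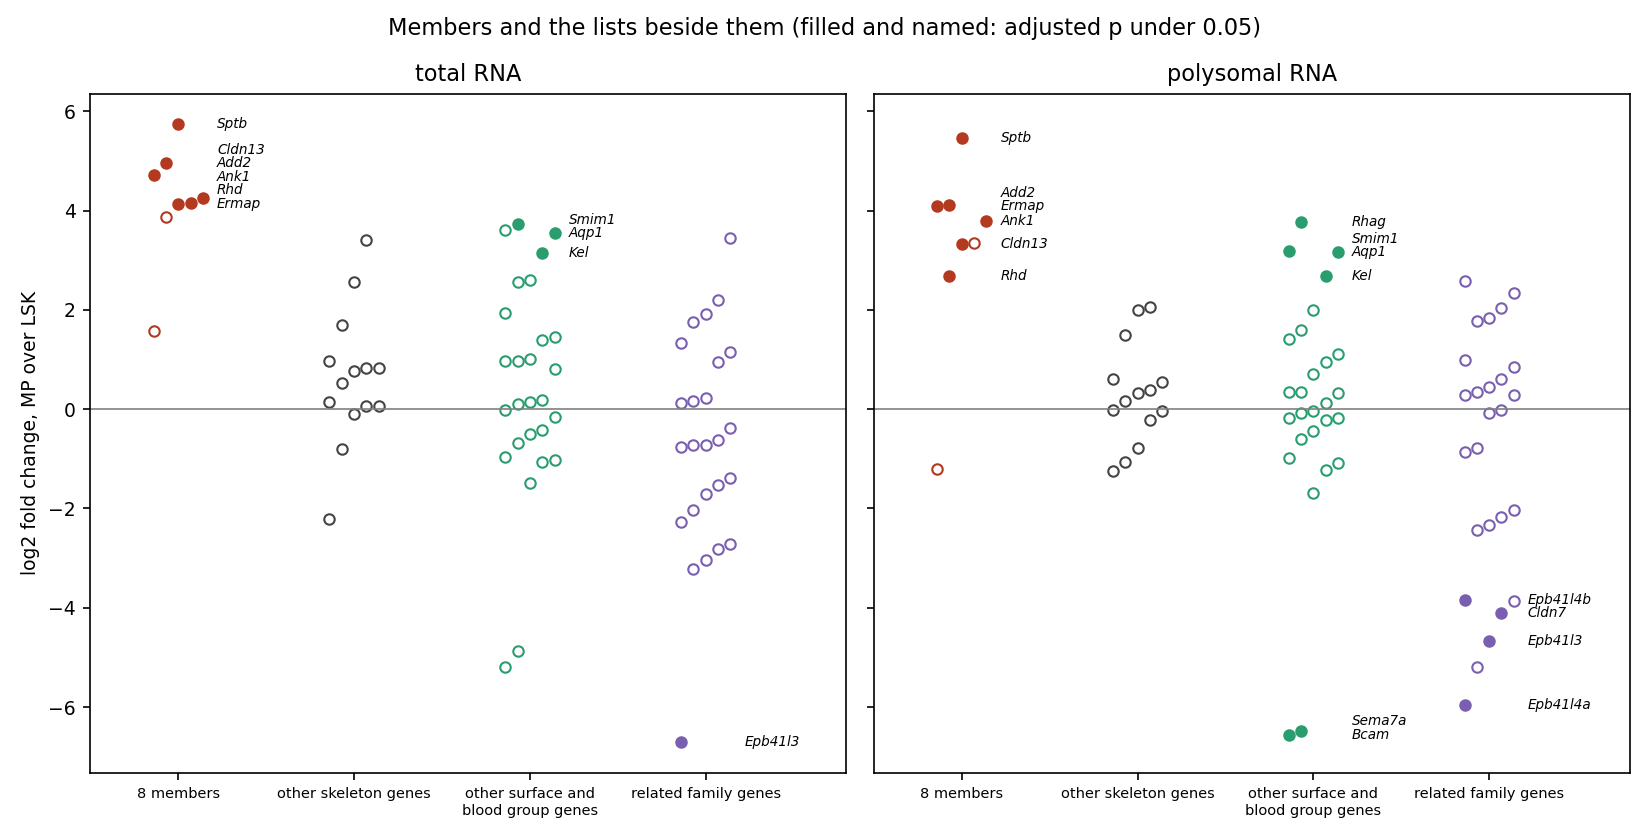
Change from LSK to MP of the 8 genes and of the 3 lists beside them as log2 fold change, in total RNA (left) and polysomal RNA (right); each point is a gene, filled and named from top to bottom where edgeR's adjusted p is under 0.05. Genes with 0 counts in a whole group (Cldn4, and Cldn5 in total RNA) have no fold and are left out. Among the other skeleton genes 0 of 14 are filled in either kind of RNA.

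Related genes outside the skeleton and surface lists did not pass the test as higher in the fit to all libraries. Of 34 related genes of the spectrin, ankyrin, protein 4.1, bicarbonate transporter, Rh, transglutaminase, butyrophilin and claudin families, 27 passed the filter. In total RNA 0 rose and 1 fell, Epb41l3, a relative of protein 4.1, with 314 and 351 counts in LSK and 2 and 3 in MP (edgeR adjusted p = 0.0326). In polysomal RNA 0 rose and 5 fell, Epb41l3, Epb41l4a, Epb41l4b and the claudins Cldn7 and Cldn4. Over all genes tested, 0.274% were called higher and 0.816% lower in total RNA, and 0.524% and 2.83% in polysomal RNA. Cldn4 had 0 counts in all 5 MP libraries. The claudin Cldn15 was just above the threshold, at 15.6 and 8.20 CPM in LSK total RNA and 180 and 82.0 in MP total RNA (log2 3.46, SE 0.705, edgeR adjusted p = 0.0530), without overlap. Under alternatives 0 to 2 of these genes were called higher in each kind of RNA, with 2 in both by the DESeq2 test. The non-erythroid partners of the red cell genes, Sptan1 (log2 -0.76) and Sptbn1 (log2 -1.52) in total RNA, had edgeR adjusted p of 0.597 and 0.430.

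Over the 9 libraries the members other than Slc4a1 ran closely together. The 21 pairs among these 7 genes had Pearson's r of log2 CPM between 0.911 and 0.994 (median 0.948), whereas the 7 pairs with Slc4a1 had r between 0.0406 and 0.297. With the mean of the other members, r was 0.207 for Slc4a1 and 0.912 for Sptb, the lowest of the rest. These points share libraries and the split into 2 populations, so r describes them only. Of the 8813 genes whose mean reached 10 CPM, the 10 most like the mean pattern of the 8 members were Spon2 (r = 0.993), Slc38a5 (0.990), Kel (0.986), Igsf3 (0.982), Col5a1 (0.979), Uros (0.977), Slc26a1 (0.975), Ces2g (0.975), Asns (0.974) and Tspo2 (0.972). Kel was also on the surface list, and Uros encodes an enzyme of heme synthesis.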

How the data were processed

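The authors deposited raw counts per gene symbol, which were used as deposited, and normalized values that appear to be log2, used only as an alternative. Tools named in the submitters' processing notes are STAR, featureCounts, bcl2fastq and DESeq2, with the builds GRCm38 and mm10. Versions, annotation and strand were not given in the sources used here. Per the labels' protocols, Trizol was used for extraction and SMARTer for amplification. Groups and numbers came from sample titles, and all 9 columns were matched by name.

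In edgeR 4.0.16 (R 4.3.3), filterByExpr kept genes by group at a minimum count of 10 and a total of 15. One quasi-likelihood model, with 1 mean for each group and TMM factors, covered all 9 libraries, with 5 residual degrees of freedom, and 5 two-sided comparisons were adjusted by the Benjamini-Hochberg method over 16426 genes each. The script was tested on simulated data. The median biological coefficient of variation was 0.558, so the spread between libraries and not depth set the precision. Exact permutation tests cannot go below p = 0.333 for 2 against 2 libraries or 0.2 for 3 against 2, so none are given. CPM per kb divides by the merged exon length in GENCODE M21. DESeq2 1.42.0 and limma 3.58.1 served as alternatives, with other scalings, filters, fits and left-out libraries.

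The members and lists were chosen with earlier results of these data known. Genes are named if they are members or markers, or are among the 10 most alike in pattern (log2 CPM with a prior count of 2). Genes on a list are named if they were called, stand beside a member by role, or are examples of uncalled genes. No protein sequences were used here, and 2 genes of the lists are not reported here.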

Additional observations from a re-analysis of the deposited data

Results flagged for a closer look

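Slc4a1 went in opposite directions between the populations in the 2 kinds of RNA: both MP total libraries were above both LSK total libraries, and all 3 MP polysomal libraries were below both LSK polysomal libraries. The polysomal-to-total ratio of MP over that of LSK was -2.78 on the log2 scale (SE 0.894, unadjusted p = 0.0117, edgeR adjusted p = 0.877), so the difference did not pass the test over all genes. Over all alternatives it stayed between -3.55 and -2.27.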

How the results depend on the processing

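The signs of the population differences of all 8 genes held in every alternative run, in both kinds of RNA, while calls did not. In total RNA the members called, 6 in the main analysis, ranged from 0 to 7 when 1 library was left out (0 in 7 of 9 cases), and in polysomal RNA from 0 to 7. Fitting only the compared groups gave 0 in total and 5 in polysomal RNA. Without both LSK libraries numbered 2, 3 were called in polysomal RNA, and without both MP libraries numbered 1, 0 in each. The DESeq2 test called 1 member, Slc4a1, in the LSK comparison of fractions. Its polysomal over total value in LSK ran from 1.89 to 3.16. Library totals moved the median of all genes in total RNA by over 0.1, to -0.36, and the share of higher calls from 25.1% to 13.1%. Genes called in all were 179 in total and 551 in polysomal RNA, against 1206 and 1558 with no filter on low counts, 1451 and 1624 with DESeq2, 850 and 751 with limma on the authors' values, 0 and 304 with only the compared groups, 328 in total RNA with library totals, and 0 to 446 and 0 to 516 without 1 library. With no filter on low counts 547 genes were called between fractions in LSK, 22 in MP and 4 in the ratio of ratios, none of them a member. Fewer samples or other genes enter several of these fits, and the cause of the other differences was not tested.

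Signs of uncalled values between fractions turned. With library totals Cldn13 in MP was -0.0080 and the Ermap ratio of ratios 0.13, and with limma on the authors' values the latter was 0.061. Without both LSK libraries numbered 2, Sptb was 0.043 and Add2 -0.073 in LSK, and the Add2 ratio 0.31. Without both MP libraries numbered 1, Rhd was -0.063 and Cldn13 -0.28 in MP. Leaving out 1 library gave -0.15 to 0.91 for Ermap and -0.23 to 0.10 for Sptb in LSK, and -1.15 to 0.67 for Sptb and -0.30 to 0.82 for Cldn13 in MP. For the ratio of ratios it gave -0.83 to 0.19 for Ank1, -1.62 to 0.36 for Epb42, -0.44 to 0.63 for Ermap and -1.06 to 0.74 for Sptb.

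Libraries 1 and 2 of each group share numbers, but the labels do not say what a number marks, and with 2 pairs per comparison the data do not settle it. Deviations of same-numbered libraries correlated at 0.147 to 0.592 over genes. With a replicate block 7 members were called in total (Epb42 adjusted p = 0.0476) and 6 in polysomal RNA, and 570 genes in all in total RNA against 179. In the block fit Add2 was -0.021 and Cldn13 -0.0031 in MP, and the Ermap ratio 0.052.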
